A study of Mus musculus with 6 samples.

Results

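The genes described here are the 10 that encode the prolyl and lysyl hydroxylases of collagen and the proteins that fold it in the endoplasmic reticulum (ER): P4ha1, P4ha2, P4ha3, P4hb, Plod1, Plod2, Plod3, Serpinh1, Crtap and Ppib. They were picked by symbol from the 47069 genes in the table of read counts, with the difference between KO and WT mice already known. The fold changes and adjusted p-values of these 10 genes are therefore a description of where each stood in a fit over all genes, and are not independent evidence. Lungs were taken 10 h after lights on (Zeitgeber time ZT10) from 3 WT mice (WT4 to WT6), which were C57BL/6J, and from 3 KO mice (KO4 to KO6), which carry a deletion of the 5′ part of Zpbp2 on the same background. The study used adult mice of both sexes kept in a light/dark cycle, the labels give no sex for single animals, and mRNA was sequenced with a stranded kit in 1 library per mouse. The deletion takes exons 1 to 3, the KO mice come from 1 strain, and the WT controls were raised in the same colony. All differences are given as KO against WT.

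Collagen chains are modified while they enter the ER. Prolyl 4-hydroxylase, a tetramer of alpha subunits (P4ha1, P4ha2 or P4ha3) and the beta subunit P4hb, hydroxylates proline so that the triple helix is stable at body temperature, and uses oxygen, iron, 2-oxoglutarate and ascorbate. The lysyl hydroxylases Plod1, Plod2 and Plod3 prepare lysines for sugar addition and crosslinks, HSP47 (Serpinh1) holds the folded helix until it leaves the ER, and Crtap and the prolyl isomerase cyclophilin B (Ppib) act with a prolyl 3-hydroxylase. In the lung, collagens form the scaffold of airways, vessels and alveolar walls.

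Total counts ranged from 19981428 to 46796908 per mouse, and KO5 was the deepest library. Expression was given as CPM, read counts relative to the TMM-scaled size of the library. At these depths 3 counts, taken as the floor of detection, equal 0.0629 to 0.148 CPM. Zpbp2 itself had 1, 2 and 2 counts in the WT mice and 0 in each KO mouse, so its loss could not be measured in this tissue. The lung label was borne out by its markers, with the surfactant protein gene Sftpc at 12836 ± 1129 CPM in WT and 10923 ± 1446 CPM in KO mice (SD, n = 3 each).

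All 10 genes passed the filter on low counts, and 17037 genes were tested. RNA of 3 alpha subunits, of Serpinh1 and of Plod1 was lower in KO mice, while the log2 fold changes of P4hb, Crtap and Ppib lay between -0.13 and -0.02 and did not pass the test. In all, 5 of the 10 genes were lower at an adjusted p-value of at most 0.05 and 0 were higher (quasi-likelihood F-test of edgeR, p-values corrected over all genes by Benjamini-Hochberg, given below as the edgeR adjusted p). Over all genes tested, 6.39% passed this rule, 2.67% lower and 3.72% higher. None of the 10 also reached an absolute log2 fold change of 1.5, as 0.64% of all genes did. All 10 had a log2 fold change below 0, as had 49.4% of all genes. The KO values lay below the range of the WT values in 7 of the 10 genes, which was the case for 15.6% of all genes tested (32.6% in either direction). At an unadjusted p under 0.05, 7 of the 10 were lower, and over all genes tested 25.5% were under it, 11.6% lower and 13.9% higher. DESeq2 called 11.2% of all genes and edgeR's exact test 8.72%. The median log2 fold change of the 10 genes was -0.37, against 0.0030 over all genes tested. The plot of CPM by mouse shows both patterns.

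**Figure D1:**
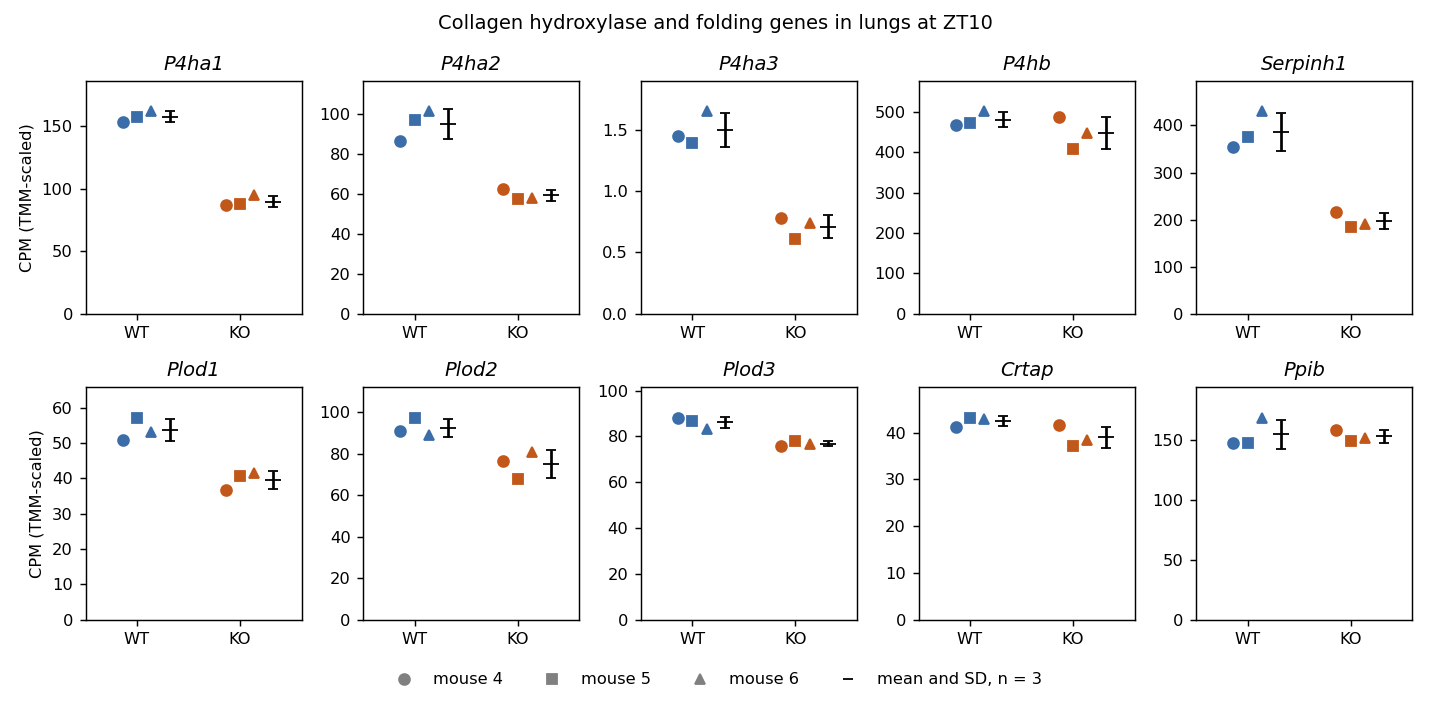
RNA level of each of the 10 genes (CPM on TMM-scaled library sizes, axes from 0) in 3 WT and 3 KO lungs, with points for single mice and bars for the mean and SD. Symbol shapes give the library number and are not used to pair mice. P4ha1, P4ha2, P4ha3, Serpinh1 and Plod1 sit lower in every KO mouse than in any WT mouse, as do Plod2 and Plod3, which did not pass the test, and P4hb, Crtap and Ppib overlap.

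P4ha1 (ENSMUSG00000019916, GRCm38 chromosome 10 from 59323296 to 59373304, plus strand) encodes the main alpha subunit of most cell types. It measured 153, 157 and 162 CPM in WT4, WT5 and WT6 and 86.9, 87.5 and 94.9 CPM in KO4, KO5 and KO6. The highest KO mouse was well below the lowest WT mouse. WT mice averaged 157 ± 4.43 CPM and KO mice 89.7 ± 4.44 CPM (SD, n = 3 each). The log2 fold change was -0.81 (SE, standard error, 0.0545), and the edgeR adjusted p was 0.00466. Of all genes tested, 1.03% had a lower log2 fold change.

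P4ha2 (ENSMUSG00000018906, chromosome 11 from 54100095 to 54131665, plus strand) encodes the second alpha subunit and lies 44.4 Mb from Zpbp2 on the same chromosome. It measured 86.5, 97.3 and 101.4 CPM in the WT mice and 62.3, 57.6 and 57.9 CPM in the KO mice, in the same order of libraries. No KO value reached the lowest WT value. The log2 fold change was -0.68 (SE 0.0707, edgeR adjusted p = 0.00944).

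P4ha3 (ENSMUSG00000051048, chromosome 7 from 100285520 to 100319699, plus strand), the third alpha subunit gene, was barely expressed. It had 36, 29 and 51 counts in the WT mice, against 16, 29 and 15 in KO4, KO5 and KO6. These equal 1.45, 1.39 and 1.65 CPM in the WT mice and 0.782, 0.608 and 0.741 CPM in the KO mice. The groups did not overlap, although the 29 counts of WT5 equalled those of the more deeply sequenced KO5. The log2 fold change of -1.10 was the lowest of the 10 genes and had the largest SE, 0.206 (edgeR adjusted p = 0.0309). At this count level the call was not stable, since the adjusted p was 0.0574 under DESeq2.

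P4hb (ENSMUSG00000025130, chromosome 11 from 120560298 to 120573253, minus strand) encodes protein disulphide isomerase, which serves as the beta subunit of the enzyme and also acts alone on disulphide bonds of many proteins. It lies 22.0 Mb from Zpbp2. It measured 468, 473 and 501 CPM in the WT mice and 487, 408 and 447 CPM in the KO mice. KO4 lay within the WT range, and the log2 fold change of -0.10 (SE 0.0756) did not pass the test (edgeR adjusted p = 0.440).

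Levels of different genes were compared per transcript length, as CPM per kb of the longest annotated transcript (RPKM). The summed RPKM of the 3 alpha subunits was 66.7, 71.3 and 73.8 in the WT mice, against 42.2, 40.7 and 42.7 in the KO mice. Set against the RPKM of P4hb in the same library, the sum gave a ratio of 0.408, 0.432 and 0.421 in the WT mice, against 0.248, 0.285 and 0.273 in the KO mice. Each KO lung thus held less alpha subunit RNA per beta subunit RNA than any WT lung, with mean ratios of 0.420 ± 0.0119 (SD, n = 3) and 0.269 ± 0.0191 (SD, n = 3). P4ha3 made up 0.882% of the sum in WT mice and 0.705% in KO mice. P4ha1 held 55.2% ± 1.35 (SD, n = 3) of the alpha subunit sum in WT mice and 53.0% ± 2.01 (SD, n = 3) in KO mice, and here the groups overlapped. Which of P4ha1 and P4ha2 was the more abundant depended on the transcript length used, since P4ha1 held 47.8% in WT mice with the longest protein-coding transcripts. The plot of subunit ratios gives these values by mouse.

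**Figure D2:**
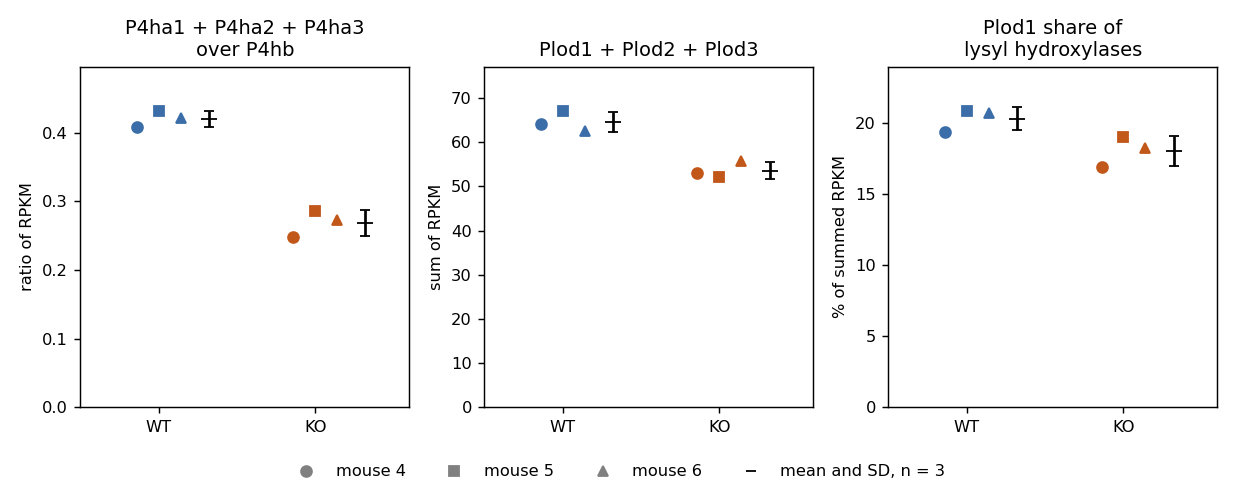
Left, ratio of the summed RPKM of P4ha1, P4ha2 and P4ha3 to the RPKM of P4hb; centre, summed RPKM of Plod1, Plod2 and Plod3; right, Plod1 as % of that sum, in 3 WT and 3 KO lungs, with points for single mice and bars for the mean and SD on axes from 0. In each panel the 3 KO mice lie below the 3 WT mice, and the alpha to beta ratio shows the widest gap, 0.248 to 0.285 against 0.408 to 0.432.

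Serpinh1 (ENSMUSG00000070436, chromosome 7 from 99345376 to 99353239, minus strand) encodes HSP47, the collagen-specific chaperone and a heat shock protein of the ER. It measured 353, 375 and 430 CPM in the WT mice and 217, 184 and 191 CPM in the KO mice. WT6 was the highest and KO5 the lowest, and the lowest WT mouse was well above the highest KO mouse. WT mice averaged 386 ± 39.4 CPM and KO mice 197 ± 17.2 CPM (SD, n = 3 each). Its log2 fold change was -0.97 (SE 0.0946, edgeR adjusted p = 0.00898), so that its RNA level fell by 48.9%, and 0.540% of the genes tested had a lower log2 fold change.

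Crtap and Ppib, the partners of prolyl 3-hydroxylase, gave no such gap. Crtap (ENSMUSG00000032431, chromosome 9 from 114375134 to 114390675, minus strand) measured 41.2, 43.2 and 43.0 CPM in the WT mice and 41.6, 37.1 and 38.3 CPM in the KO mice. Its log2 fold change was -0.13 (SE 0.0609, edgeR adjusted p = 0.250). Ppib (ENSMUSG00000032383, chromosome 9 from 66060222 to 66066623, plus strand) measured 148, 148 and 169 CPM in the WT mice and 159, 149 and 151 CPM in the KO mice. The groups of Ppib overlapped fully, with a log2 fold change of -0.02 (SE 0.0674, edgeR adjusted p = 0.913). Ppib shares 1448 bp with Snx22 on the other strand, and Snx22 had 157 to 450 counts per mouse against 3067 to 7100 for Ppib.

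Of the lysyl hydroxylases, Plod1 (ENSMUSG00000019055, chromosome 4 from 147909753 to 147936767, minus strand), which acts on lysines of the triple helix, was lower in KO mice. It measured 50.8, 57.2 and 52.9 CPM in the WT mice and 36.6, 40.6 and 41.5 CPM in the KO mice, and the groups did not overlap. The log2 fold change of Plod1 was -0.44 (SE 0.0707, edgeR adjusted p = 0.0235). Plod2 (ENSMUSG00000032374, chromosome 9 from 92542223 to 92608428, plus strand) hydroxylates lysines of the telopeptides, the ends of the chain where crosslinks start. It measured 90.9, 97.5 and 88.9 CPM in the WT mice and 76.6, 67.8 and 81.0 CPM in the KO mice. The KO values lay below the WT values, but the log2 fold change of -0.30 (SE 0.0753) missed the threshold with an edgeR adjusted p of 0.0611. DESeq2 placed Plod2 past it, with an adjusted p of 0.0123. Plod3 (ENSMUSG00000004846, chromosome 5 from 136987019 to 136996648, plus strand), which also adds sugars to hydroxylysine, measured 88.2, 86.8 and 83.3 CPM in the WT mice and 75.8, 77.9 and 76.9 CPM in the KO mice. Its groups did not overlap either, yet the log2 fold change was only -0.16 (SE 0.0449, edgeR adjusted p = 0.0749). Plod3 shares 1003 bp with Znhit1 on the other strand, which had 487 to 1022 counts per mouse against 1550 to 3711 for Plod3.

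Summed over the 3 genes, lysyl hydroxylase RNA was 64.1, 67.0 and 62.6 RPKM in the WT mice and 52.9, 52.2 and 55.7 RPKM in the KO mice. Plod1 held 20.3% ± 0.798 (SD, n = 3) of this sum in WT mice and 18.0% ± 1.07 (SD, n = 3) in KO mice. The share of Plod3 went the other way, from 40.7% ± 1.24 (SD, n = 3) to 43.8% ± 1.71 (SD, n = 3), and neither share overlapped between groups. The share of Plod2 was 39.1% ± 0.567 (SD, n = 3) in WT mice and 38.2% ± 2.37 (SD, n = 3) in KO mice, and its groups overlapped. The shares rest on the lengths used, and the longest annotated transcript of Plod1 keeps an intron. By the longest protein-coding transcripts, Plod1 held 24.3% in WT and 21.7% in KO mice, and Plod3 38.6% and 41.8%.

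Among the 10 genes in WT lungs, Serpinh1 at 169.9 ± 17.3 RPKM (SD, n = 3) and P4hb at 168 ± 6.31 RPKM (SD, n = 3) were the most abundant, and the 2 overlapped. Ppib followed at 46.8 ± 3.69 RPKM, then P4ha1 at 38.9 ± 1.10 and P4ha2 at 31.1 ± 2.51 RPKM (SD, n = 3 each). Plod3 at 26.3 ± 0.774, Crtap at 25.4 ± 0.657 and Plod2 at 25.2 ± 1.24 RPKM (SD, n = 3 each) could not be put in order, since their values overlapped. Plod1 came ninth with 13.1 ± 0.786 RPKM and P4ha3 last with 0.623 ± 0.0566 RPKM (SD, n = 3 each). By the longest transcripts, P4hb led in KO lungs with 156.4 ± 13.7 RPKM and Serpinh1 came second with 86.8 ± 7.54 RPKM (SD, n = 3 each). P4ha1 measured 22.2 ± 1.10 RPKM in KO mice (SD, n = 3). By mean it had rank 4 in WT mice and rank 6 in KO mice, with ranks of 6, 6 and 4 in KO4, KO5 and KO6. Its KO values overlapped those of Plod3, Crtap and Plod2, so P4ha1 could not be placed among them. With the longest protein-coding transcripts, the rank of P4ha1 by mean in WT mice was 5. The longest annotated transcript of P4ha2 keeps an intron, and its longest protein-coding one gave a mean of 42.0 RPKM in WT mice. The order also changed with the mean length over transcripts. P4hb then averaged 356.6 RPKM in WT mice, Serpinh1 255.8, P4ha2 81.2 and Ppib 73.8 RPKM. The place of Ppib rests on its length, because its longest annotated transcript keeps an intron. With the 0.892 kb protein-coding transcript in place of the 3.305 kb one, Ppib measured 165.4, 165.8 and 189 RPKM in the WT mice, which overlapped Serpinh1 and P4hb, so that these 3 could not be put in order. In KO4, KO5 and KO6 Ppib then measured 178, 167 and 169.8 RPKM, above P4hb and Serpinh1 in each mouse. The KO ranges of Ppib and P4hb overlapped.

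The 250 bases before the RefSeq transcription start (GRCm38.p6) are shown for the most strongly expressed genes that were lower, P4ha1, P4ha2 and Serpinh1, and for Ppib, which was not. They are printed 5′ to 3′ on the strand of the gene, and capitals mark ACGTG or GCGTG on either strand, the core letters of the hypoxia response element.
P4ha1 (chr10:59323046-59323295, plus strand): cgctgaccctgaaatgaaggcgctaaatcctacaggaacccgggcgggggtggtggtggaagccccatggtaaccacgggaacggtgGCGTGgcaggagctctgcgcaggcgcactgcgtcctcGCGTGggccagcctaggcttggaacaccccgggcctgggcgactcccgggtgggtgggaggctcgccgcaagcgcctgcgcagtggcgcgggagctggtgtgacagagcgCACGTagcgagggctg
P4ha2 (chr11:54100674-54100923, plus strand): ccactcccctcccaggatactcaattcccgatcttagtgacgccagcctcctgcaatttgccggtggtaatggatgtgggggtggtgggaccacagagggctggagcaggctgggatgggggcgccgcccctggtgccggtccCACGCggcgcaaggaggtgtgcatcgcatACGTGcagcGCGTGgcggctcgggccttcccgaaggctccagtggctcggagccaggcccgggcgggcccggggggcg
Serpinh1 (chr7:99353240-99353489, minus strand): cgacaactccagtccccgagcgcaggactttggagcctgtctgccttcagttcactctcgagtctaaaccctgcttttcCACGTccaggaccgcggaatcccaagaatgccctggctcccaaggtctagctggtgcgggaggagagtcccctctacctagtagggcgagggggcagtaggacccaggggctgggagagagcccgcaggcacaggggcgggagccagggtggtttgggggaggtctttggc
Ppib (chr9:66059919-66060168, plus strand): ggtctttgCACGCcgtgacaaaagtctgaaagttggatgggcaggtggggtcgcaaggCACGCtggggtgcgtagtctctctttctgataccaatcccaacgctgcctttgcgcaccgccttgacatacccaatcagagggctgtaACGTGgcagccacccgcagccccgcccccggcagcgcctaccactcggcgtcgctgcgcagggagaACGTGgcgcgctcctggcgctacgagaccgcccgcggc

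RefSeq promoter sequences were matched for 9 of the 10 genes. In the window from 250 bases before to 50 bases after the start, 8 of the 9 held a hypoxia core, and P4ha3 held none. Of all 32817 promoters of that length, 43.8% held at least 1. Before the start, P4ha1 and P4ha2 each carried 3 cores and Serpinh1 carried 1, while Ppib, whose RNA level did not pass the test, carried 4. The heat shock element, searched in both orientations, was found in 0 of the 9 windows and in 0.603% of all promoters. The ER stress element, CCAAT and CCACG spaced by 9 bases, was also in 0 of the 9 and in 0.119% of all promoters. The E-box CACGTG, which overlaps the hypoxia core ACGTG, was in 0 of the 9 and in 7.15% of all promoters. TATAAA was in 3 of the 9 windows, those of P4ha1, Plod1 and Crtap, and in 13.6% of all promoters. These are matches of letters on both strands within a short window.

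Of 16 genes for collagen modification and export in the ER, 1 was lower in KO mice, 0 were higher and 15 did not pass the test (edgeR's quasi-likelihood test). Their median log2 fold change was -0.15, and 13 of the 16 were below 0. By the same test 5 were lower and 1 was higher at an unadjusted p under 0.05. The gene that passed was Fkbp14, a collagen-binding prolyl isomerase of the ER, with 29.2, 34.8 and 40.0 CPM in the WT mice and 21.1, 18.7 and 19.1 CPM in the KO mice. Its log2 fold change was -0.82 (SE 0.120, edgeR adjusted p = 0.0189). P3h1, the prolyl 3-hydroxylase that binds Crtap and Ppib, had a log2 fold change of -0.21 (SE 0.0770), and its groups did not overlap, but the edgeR adjusted p was 0.149. The highest log2 fold changes of the list were 0.17 for Colgalt1 and 0.15 for Colgalt2, which transfer galactose to the hydroxylysines made by the Plod enzymes, and neither passed. P3h3, a prolyl 3-hydroxylase, came after Fkbp14 with -0.24.

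Among 12 genes for procollagen trimming and crosslinking outside the cell, 2 were lower, 0 were higher and 10 did not pass by edgeR's quasi-likelihood test. Their median log2 fold change was -0.30. By that test 5 were lower and 1 was higher at an unadjusted p under 0.05, while DESeq2 called 4 lower and edgeR's exact test 3. Lox, the lysyl oxidase that starts crosslinks at lysines and hydroxylysines, measured 43.6 ± 8.45 CPM in WT and 28.1 ± 0.633 CPM in KO mice (SD, n = 3 each), a log2 fold change of -0.63 (edgeR adjusted p = 0.0389). Pcolce2, an enhancer of procollagen C-proteinase, measured 279.7 ± 14.9 CPM and 225.8 ± 11.4 CPM (SD, n = 3 each), a log2 fold change of -0.31 with an adjusted p of 0.0389 by the same edgeR test. The lowest and highest values that did not pass were -0.48 for Adamts3, a procollagen N-proteinase, and 0.28 for Tll1, a C-proteinase, followed by 0.11 for Loxl3.

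The collagen chains are what these enzymes act on. Of 25 chain genes, 23 were tested, and 0 passed in either direction by edgeR's quasi-likelihood test. At an unadjusted p under 0.05 there were 7, all lower, and DESeq2 and edgeR's exact test each called 2, while fits with 1 mouse left out called 0 to 3. The median log2 fold change of the chains was -0.15. Col3a1, a chain of fibrils and vessel walls, had the lowest, at -0.43 (SE 0.111), with 253, 301 and 282 CPM in the WT mice and 239.6, 183 and 201 CPM in the KO mice (edgeR adjusted p = 0.0671). Col5a2 followed with -0.37 and groups that did not overlap (edgeR adjusted p = 0.0515), and Col15a1 and Col8a1 had the highest values, 0.50 and 0.18. Of the 23 chains, 18 had a log2 fold change below 0, as had 49.4% of all genes tested. The KO values lay below the WT range in 6 chains and above it in 0, against 15.6% and 17% of all genes. Col1a1 and Col1a2, the chains of type I collagen, had log2 fold changes of -0.21 and -0.15, and their groups overlapped. No list was tested against the 10 genes or against another list.

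Serpinh1 and P4hb also belong to wider protein folding programmes. In the ER, 4 of 21 general chaperone and disulphide enzyme genes were lower, 0 were higher and 17 did not pass, with a median log2 fold change of -0.23. The 4 were Hspa5, the ER form of HSP70, at -0.60, Manf, an ER stress protein, at -0.55, Hyou1, an ER chaperone, at -0.42, and Dnajc3, a co-chaperone, at -0.27, with edgeR adjusted p-values of 0.0171 to 0.0423. DESeq2 called 11 of this list lower and 2 higher. By edgeR's quasi-likelihood test 13 were lower and 2 higher at an unadjusted p under 0.05, against 11.6% and 13.9% of all genes tested. In all, 18 of the 21 had a log2 fold change below 0, as had 49.4% of all genes. The KO values lay below the WT range in 14 and above it in 1, against 15.6% and 17% of all genes. The highest log2 fold changes were 0.50 for Ero1lb and 0.34 for Txndc5, oxidative folding enzymes, and neither passed by edgeR's quasi-likelihood test.

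Of 18 heat shock genes, 15 were lower and 0 were higher, with a median log2 fold change of -0.95. Most encode cytosolic chaperones, but Hspd1 and Hspe1, at -0.70 and -0.69 and among the 15, encode mitochondrial ones. Their summed level was 5621, 6159 and 7414 CPM in the WT mice and 3188, 3108 and 3317 CPM in the KO mice. WT6 was the highest WT mouse here, as it was for Serpinh1 and for 6 of the 10 genes. Dnajb1, an HSP40 co-chaperone, had a log2 fold change of -1.12, Dnaja1, another HSP40, had -1.22 and Hspa8, the constitutive HSP70, had -1.15, with edgeR adjusted p-values of 0.00466 to 0.00665. The lowest log2 fold changes were -1.90 for Hsph1, which passed, and -1.85 for Hspa1a, which did not, because its levels in WT mice ran from 13.7 to 68.9 CPM. The mildest were -0.24 for Cryab, which did not pass, and -0.38 for Bag3, which did.

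P4ha1, P4ha2, Plod1 and Plod2 are known to be induced in hypoxia, and 21 other hypoxia-induced genes gave a median log2 fold change of -0.03. Of these, 0 were lower, and 1 was higher by edgeR's quasi-likelihood test. At an unadjusted p under 0.05, 5 were lower and 3 were higher, and DESeq2 called 1 lower and 1 higher. The gene that passed was Pdk1, a kinase that holds back pyruvate oxidation, with 41.2 ± 2.12 CPM in WT mice and 52.3 ± 3.55 CPM in KO mice (SD, n = 3 each), a log2 fold change of 0.35 (edgeR adjusted p = 0.0359). Adm and Ndrg1 had the lowest log2 fold changes, -0.37 and -0.22, and Eno1 was next to Pdk1 with 0.19. Of 10 oxoglutarate hydroxylases that act on other substrates, 8 were in the table, and 0 of these passed in either direction by edgeR's quasi-likelihood test, DESeq2 or edgeR's exact test, with 4 lower at an unadjusted p under 0.05. Their lowest log2 fold changes were -0.22 for Jmjd6 and -0.21 for Egln1, and their highest were 0.09 for Asph and 0.06 for P4htm. The plot of log2 fold changes by list sets these groups side by side.

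**Figure D3:**
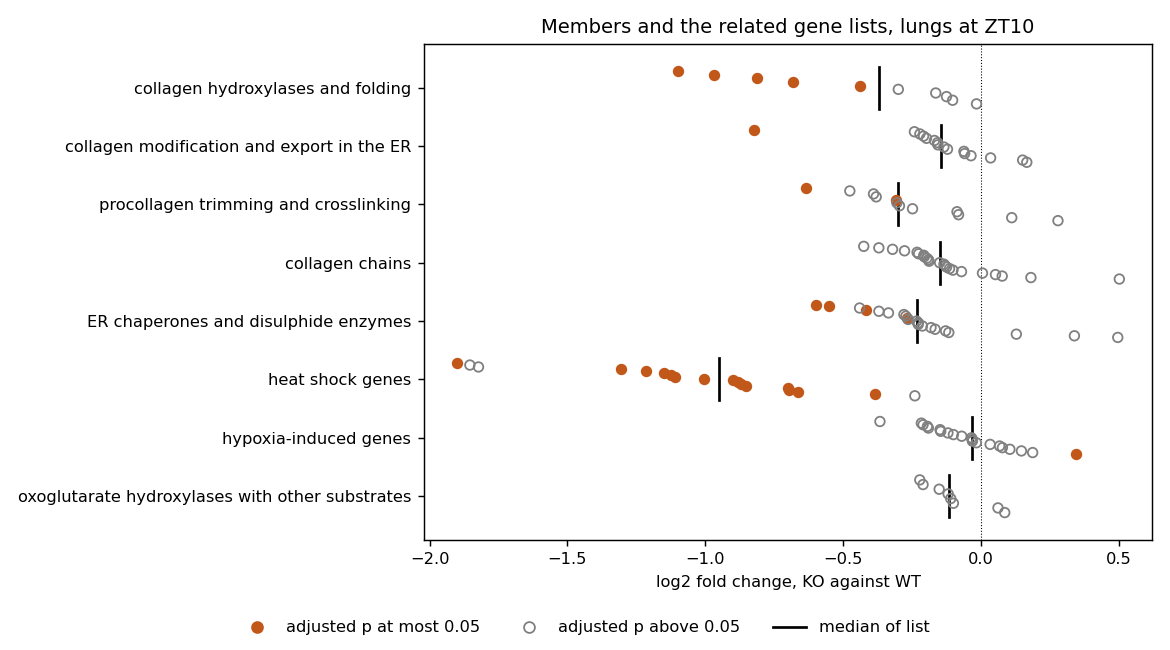
Log2 fold change, KO against WT, of each tested gene (points, filled where the adjusted p is at most 0.05) in the 10 collagen hydroxylase and folding genes and in 7 related lists, with a line at each list's median. The 5 filled points of the 10 genes lie between -1.10 and -0.44, the heat shock genes have a median of -0.95, the collagen chains run from -0.43 to 0.50 with a median of -0.15, and the hypoxia-induced genes have a median of -0.03.

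In bulk lung RNA, fewer cells of a type and less RNA per cell cannot be told apart. Of 10 fibroblast markers, 0 passed by edgeR's quasi-likelihood test and by its exact test, 3 were lower at an unadjusted p under 0.05 and DESeq2 called 1 lower. Their summed level was 3061 to 3488 CPM in WT mice and 2926 to 3471 CPM in KO mice. Of 7 smooth muscle markers, 0 passed by the quasi-likelihood test of edgeR, but 6 were lower at an unadjusted p under 0.05, DESeq2 called 5 and edgeR's exact test 1. Their summed level was 587 to 887 CPM in WT mice and 458 to 601 CPM in KO mice, with a median log2 fold change of -0.54. The cartilage marker Ucma was at 0 in all 6 libraries and Acan and Matn1 did not exceed 3 counts. Comp and Hapln1, also cartilage markers, were found at a low level, with 3 to 23 and 7 to 28 counts per mouse. Their log2 fold changes were 0.61 and 0.34, but their groups overlapped and neither passed by edgeR's quasi-likelihood test. All 5 red cell genes were lower, with sums of 2126 to 2277 CPM in WT mice and 1035 to 1411 CPM in KO mice. Of the leukocyte markers, 7 of 8 monocyte genes and 3 of 5 neutrophil genes passed as higher in KO mice by edgeR's quasi-likelihood test. DESeq2 called 7 and 5 higher, and all 8 and all 5 had a log2 fold change above 0. B cell markers summed to 119 to 132 CPM in WT mice and 225 to 966 CPM in KO mice, with KO5 the highest, and 0 of 7 passed by edgeR's quasi-likelihood test, although 7 were higher at an unadjusted p under 0.05, DESeq2 called 6 higher and edgeR's exact test 7. All 6 T cell markers had a log2 fold change above 0, 0 passed by edgeR's quasi-likelihood test, 5 were higher at an unadjusted p under 0.05, and DESeq2 called 3 and the exact test 1. Mesothelial markers summed to 305 to 415 CPM in WT and 294 to 338 CPM in KO mice, lung epithelial markers to 47144 to 56776 and 36688 to 48022 CPM, and endothelial markers to 4202 to 4587 and 3907 to 4693 CPM. All 8 lung epithelial markers had a log2 fold change below 0 and 4 did not overlap between groups, 0 passed by edgeR's quasi-likelihood test or its exact test, 4 were lower at an unadjusted p under 0.05, and DESeq2 called 3. Of 8 endothelial markers, 1 was lower by edgeR's quasi-likelihood test, Cldn5, a tight junction protein, at -0.31. The part of these shifts in the results for collagen hydroxylases was not tested.

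The calls depended on single mice, as the plot of fits with each mouse left out shows. Without WT5, 0 of the 10 genes passed by edgeR's quasi-likelihood test, and 1 of the 17545 genes tested did. In that fit 7 of the 10 had an unadjusted p under 0.05, as had 3168 of all genes tested. Without WT4, WT6 or KO6, 3 of the 10 genes passed, P4ha1, P4ha2 and Serpinh1, 4 passed without KO5 and 5 without KO4. Over all genes, 254 of 17117 passed without WT4, 63 of 17136 without WT6 and 117 of 17421 without KO6. The counts were 933 of 17033 without KO5 and 1278 of 17504 without KO4. Without WT5, the edgeR adjusted p-values were 0.0557 for P4ha1, 0.0598 for Serpinh1 and 0.0672 for P4ha2, while their log2 fold changes were -0.81, -0.99 and -0.67. Plod1 passed without KO4 and without KO5, and had an adjusted p of 0.0537 to 0.111 without WT4, WT5, WT6 or KO6 from the same edgeR fits. P4ha3 passed only without KO4, and ranged from 0.0667 to 0.120 in the other 5 fits with edgeR. The log2 fold change stayed between -0.85 and -0.79 for P4ha1, between -0.75 and -0.64 for P4ha2 and between -1.04 and -0.89 for Serpinh1. Without WT5, Fkbp14, Lox, Pcolce2, Pdk1 and the ER chaperone and heat shock genes named above also did not pass. Nor did any of the red cell, monocyte and neutrophil genes, or the endothelial marker Cldn5.

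**Figure D4:**
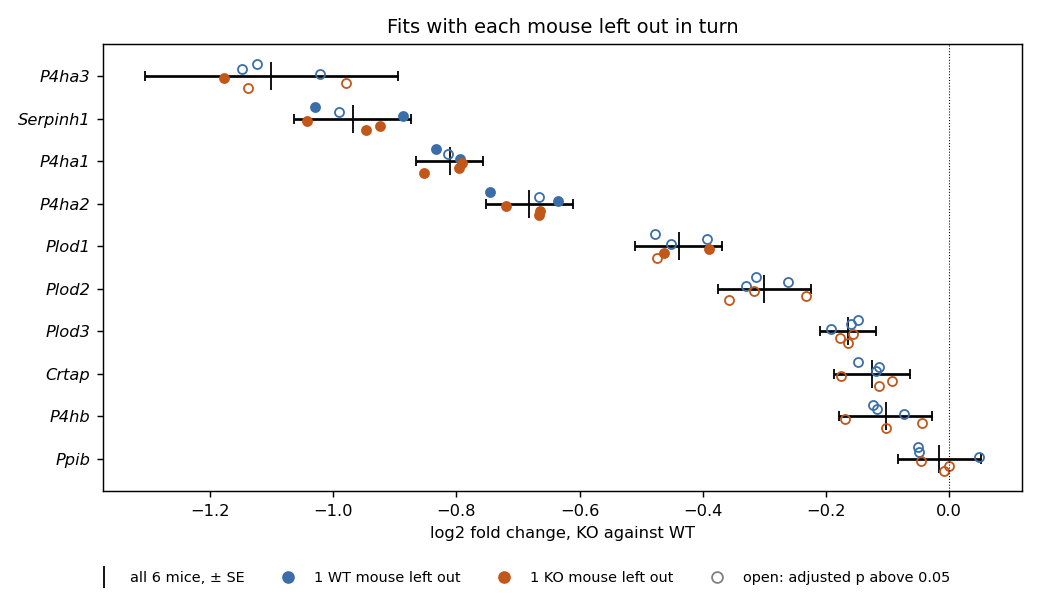
Log2 fold change, KO against WT, of the 10 genes with all 6 mice (black bar, ± standard error) and with each mouse left out in turn (points, coloured by the group of the mouse left out, filled where the adjusted p from edgeR is at most 0.05). The values of P4ha1, P4ha2, P4ha3, Serpinh1 and Plod1 stay below 0 in every fit, and none is filled without WT5.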

How the data were processed

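Lung RNA from 3 WT and 3 KO mice at ZT10 was sequenced, 1 library per mouse. Per the submitters' processing notes in the labels, the authors trimmed reads (Trimmomatic 0.36), aligned them to GRCm38 (STAR 2.5.3a) and counted them per gene (HTSeq 0.6.0). The authors deposited whole read counts, not normalized. The annotation release and strand setting are not given in the sources used here, so overlapping genes cannot be separated.

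Counts were tested in edgeR 4.0.16 (R 4.3.3) by the quasi-likelihood test, with TMM factors, filterByExpr (minimum count 10, minimum total 15) and Benjamini-Hochberg adjustment over 17037 genes, without covariates. A gene passed at an adjusted p of at most 0.05. A standard error is the log2 fold change divided by the square root of F. The fits were run on simulated counts drawn from edgeR's own estimates, which checks the code and not any result given here. DESeq2 1.42.0, edgeR's exact test, other factors and filters, the replicate number as a block, removal of immunoglobulin and haemoglobin genes, and fits without each mouse were alternatives. Lengths and positions came from GENCODE M21 (GRCm38), and promoters from RefSeq. P-values set the difference between groups against the spread between mice, 3 per group, estimated with information shared over genes. Floors cover counting error only.

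The 10 genes and all lists were chosen with earlier results of these data known. Genes named were the 10, those of each list that passed (at most 6 per list), and the 2 highest and 2 lowest of each list. The prolyl 3-hydroxylase P3h1, the type I collagen chains, Sftpc, the cartilage markers, Cldn5, Hspd1, Hspe1, Snx22 and Znhit1 were named beyond this rule, after their values were seen.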

Additional observations from a re-analysis of the deposited data

How the results depend on the processing

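The number of all genes passing, 1089, became 1913 with DESeq2 in place of edgeR's quasi-likelihood test and ranged from 1 to 1278 when single mice were left out. The number of collagen hydroxylase and folding genes passing, 5, stayed at 5 or 6 under 7 settings and ranged from 0 to 5 with each mouse left out. That of the collagen modification and export list, 1, ranged from 0 to 1 with each mouse left out. With the replicate number as a block, 66 genes passed in all, 1 of the 10 (P4ha1) and 0 of the export list, by edgeR's quasi-likelihood test. The labels do not say whether the numbers pair the mice. Same-numbered mice had correlations of -0.03, -0.15 and -0.02 in their deviations from the group means. Of the 3 WT mice, 0 correlated best with the KO mouse of its own number. With 3 mice per group these correlations cannot exclude a pairing. Of 140 values of the 10 genes under the alternatives, 119 kept their direction and their side of the threshold. The sign changed once, for Ppib, whose log2 fold change ran from -0.051 without WT4 to 0.048 without WT6. The share of P4ha1 in the alpha subunits of WT mice was 38.2% with mean transcript lengths and 47.8% with the longest protein-coding transcripts, the latter added after seeing the data. P4ha3 rests on 15 to 51 counts per mouse, and each group on 3 mice.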
